A study of Mus musculus with 20 samples.

Results

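Igf2bp1, Igf2bp2, Igf2bp3, Lin28a, Lin28b, Hmga1 and Hmga2 are 7 genes, some of them kept low in most adult cells, that mouse embryonic cells use widely. They were taken by gene name from an expression table of 45705 genes, and all 7 were present. The genes were chosen by name with their RPKM levels and their differences from NSC in these libraries in view, so their levels and their differences between populations are given as a description, with no test. Cells came from the periventricular zone of Swiss Webster pups at postnatal day 5, a wild-type stock with no transgene and no treatment. Litters were pooled with males and females together, so a library is a pool of pups and not 1 animal. Fluorescence-activated cell sorting on 4 surface antigens (CD133, LeX, CD140a and NG2) gave 5 populations, each collected in 4 batches, for 20 libraries in all.

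The neural stem cell (NSC) gate was positive for CD133 and LeX and negative for CD140a and NG2. The other 4 gates were negative for CD133 and positive for NG2. BNAP/GRP1 cells were LeX positive and CD140a negative, and GRP2/MP3 cells were negative for both. GRP3 cells were CD140a positive and LeX negative, and PFMP cells were positive for both. BNAP/GRP1 and GRP2/MP3 each pool progenitors that share an antigen profile, so each is a mixed population by its gate. Each library is an average over the sorted cells, in which fewer cells expressing a gene and less RNA per cell cannot be told apart.

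LIN28A and LIN28B are RNA-binding proteins that block the maturation of let-7 microRNAs, and mature let-7 in turn represses the Lin28, Hmga2 and Igf2bp mRNAs. The IGF2BP proteins bind mRNAs such as those of Igf2, Myc and Actb and control their stability, transport and translation. HMGA1 and HMGA2 are small chromatin proteins that bind the minor groove of AT-rich DNA, and HMGA2 is known for holding down the Ink4a/Arf locus in fetal and young neural stem cells. On GRCm38 (GENCODE vM21) the protein-coding genes lie at chr11:95957163-96005940 (Igf2bp1), chr16:22059009-22163299 (Igf2bp2), chr6:49085223-49214957 (Igf2bp3), chr4:134003330-134018841 (Lin28a), chr10:45376620-45486395 (Lin28b), chr17:27556497-27563674 (Hmga1) and chr10:120361275-120476469 (Hmga2). In the forebrain these genes are best known from embryonic stages, and the levels of some fall as let-7 rises with age.

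The let-7 sequences are shown because the same 7 bases link all of the genes described here. In RefSeq (GRCm38.p6), 11 mature mouse microRNA names share the seed, which spans bases 2 to 8 and is set in capitals in the 4 examples that follow.
mmu-let-7a-5p (chr13:48538239-48538260, minus strand): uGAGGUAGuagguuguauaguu
mmu-let-7b-5p (chr15:85707325-85707346, plus strand): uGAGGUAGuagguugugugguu
mmu-let-7i-5p (chr10:122985698-122985719, minus strand): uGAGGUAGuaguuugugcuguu
mmu-miR-98-5p (chrX:151913229-151913250, plus strand): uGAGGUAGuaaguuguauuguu
The DNA complement of the seed is CTACCTC. It was searched for on the sense strand only of 1 annotated 3′ UTR per gene, in GENCODE vM21 on GRCm38. Of 21037 genes with such a UTR, 9.02% held it at least once and 1.07% at least 2 times. All 7 of the genes held it, with 17 matches between them. Hmga2, Igf2bp1 and Lin28b held 4 each, Lin28a held 2, and Igf2bp2, Igf2bp3 and Hmga1 held 1 each. Among genes with a 3′ UTR of similar length, the share with at least as many matches was 0.123% for Hmga2, 0.331% for Igf2bp1 and 0.295% for Lin28b. That share was 2.06% for Lin28a, 8.23% for Hmga1, 12.1% for Igf2bp2 and 13.3% for Igf2bp3. One match per gene is shown with its neighbouring bases, each in the 3′ UTR of its gene and read 5′ to 3′ on the gene's strand, with the match in capitals.
Lin28a (chr4:134005189-134005210, minus strand): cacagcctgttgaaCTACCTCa
Lin28b (chr10:45381022-45381043, minus strand): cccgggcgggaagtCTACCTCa
Igf2bp1 (chr11:95961778-95961799, minus strand): ctgtgcgaagtaaaCTACCTCa
Igf2bp2 (chr16:22059473-22059494, minus strand): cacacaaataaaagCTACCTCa
Igf2bp3 (chr6:49086787-49086808, minus strand): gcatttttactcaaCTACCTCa
Hmga1 (chr17:27563278-27563299, plus strand): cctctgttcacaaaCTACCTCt
Hmga2 (chr10:120364224-120364245, minus strand): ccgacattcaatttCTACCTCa
The match was followed by an A, the base that lies opposite the first base of the microRNA, in 9 of the 17, and 6 of the 7 genes had at least 1 match of that kind. Hmga1 was the exception. These are matches of letters and not measured sites, and let-7 itself was not measured in polyadenylated RNA.

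Some libraries stood apart from the rest. The 5 batch 3 libraries correlated with each other at r of 0.940 to 0.970 whatever their gate. Their summed erythroid marker level was 228440 to 252654 RPKM (reads per kilobase of transcript, scaled to the sequenced total) against at most 26516 in any other batch, and their summed lung epithelium level was 983 to 1115 against at most 104. Oligodendrocyte progenitor (OPC) markers summed to at most 15.7 in GRP3 and PFMP of batch 3, against population medians of 1913 and 1361. BNAP/GRP1 of batch 4 was also apart, with r of 0.280 to 0.507 to the other libraries, the lowest relative depth (0.0395, where BNAP/GRP1 of batch 1 is 1) and a median of 10.9 RPKM over the genes tested, against 0.638 to 3.49 elsewhere. In the NSC gate, 8 ependymal markers summed to 1578 to 15931 RPKM, against 3.77 to 560 in the progenitors. Microglial markers had medians of 1506 RPKM in BNAP/GRP1 and 2412 in GRP2/MP3 against 44.8 in NSC, and OPC markers had a median of 24.2 in NSC. The part of these marker differences in the values below was not tested.

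Of the 7 genes, Igf2bp3 had the largest mean difference between NSC and each progenitor gate on the log2(RPKM + 1) scale. In NSC it was at 0.447, 0.221, 0.0553 and 1.00 RPKM in batches 1 to 4. BNAP/GRP1 had 17.2, 2.36, 0.341 and 7.49 RPKM, and GRP2/MP3 had 5.95, 22.1, 0.372 and 3.50 RPKM. GRP3 had 10.4, 9.93, 0.356 and 5.76 RPKM, and PFMP had 5.34, 2.97, 0.0335 and 3.39 RPKM. The 12 progenitor libraries of batches 1, 2 and 4 all lay above the highest NSC library, while the 4 of batch 3 all lay within the NSC range or under it. The NSC mean was 0.432 ± 0.414 RPKM (SD, n = 4). BNAP/GRP1 averaged 6.86 ± 7.54, GRP2/MP3 averaged 7.99 ± 9.70, GRP3 averaged 6.61 ± 4.67 and PFMP averaged 2.93 ± 2.19. The libraries with the most Igf2bp3, GRP2/MP3 of batch 2 and BNAP/GRP1 of batch 1, had summed microglial markers of 3116 and 5057 RPKM, and GRP3 of batches 1 and 2 had 19.8 and 14.7. Proliferation markers in these libraries summed to 1972, 1268, 704 and 829 RPKM in the same order, against 141 to 465 in NSC. The part of either marker set in the Igf2bp3 levels was not tested.

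On the log2(RPKM + 1) scale, on which all differences below are given and which understates the change of low genes, Igf2bp3 in the 4 progenitors together exceeded NSC by 1.80 ± 0.73 (SE). Taken one by one, the difference was 1.23 in PFMP, 1.89 in BNAP/GRP1, 2.01 in GRP2/MP3 and 2.06 in GRP3 (SE 0.92 each). These SE come from the fit without a batch term. With batch as a block the SE was 0.48 jointly and 0.60 for each progenitor. Without batch 3 the separate differences lay between 1.65 in PFMP and 2.63 in GRP3, and the joint difference was 2.31 ± 0.58. Within batches 1, 2 and 4 the progenitor exceeded the NSC library of its own batch by 1.13 to 4.24, and within batch 3 the differences were 0.35, 0.38, 0.36 and -0.03. In 15 of 16 progenitor libraries Igf2bp3 was above its batch's NSC library, a count reached in the same direction by 1.63% of the 27614 genes tested. It was higher in all 4 batches of BNAP/GRP1, GRP2/MP3 and GRP3, where 9.35%, 4.76% and 8.31% of genes tested were so. Ranked within each library, Igf2bp3 stood above 81.2% to 91.5% of all genes in every progenitor library of batches 1 and 2 other than BNAP/GRP1 and PFMP of batch 2 (70.4% and 74.6%), and above 32.9% to 62.2% in NSC. The rank in BNAP/GRP1 of batch 4 was only 44.7%, although its 7.49 RPKM was the highest of that batch.

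**Figure D1:**
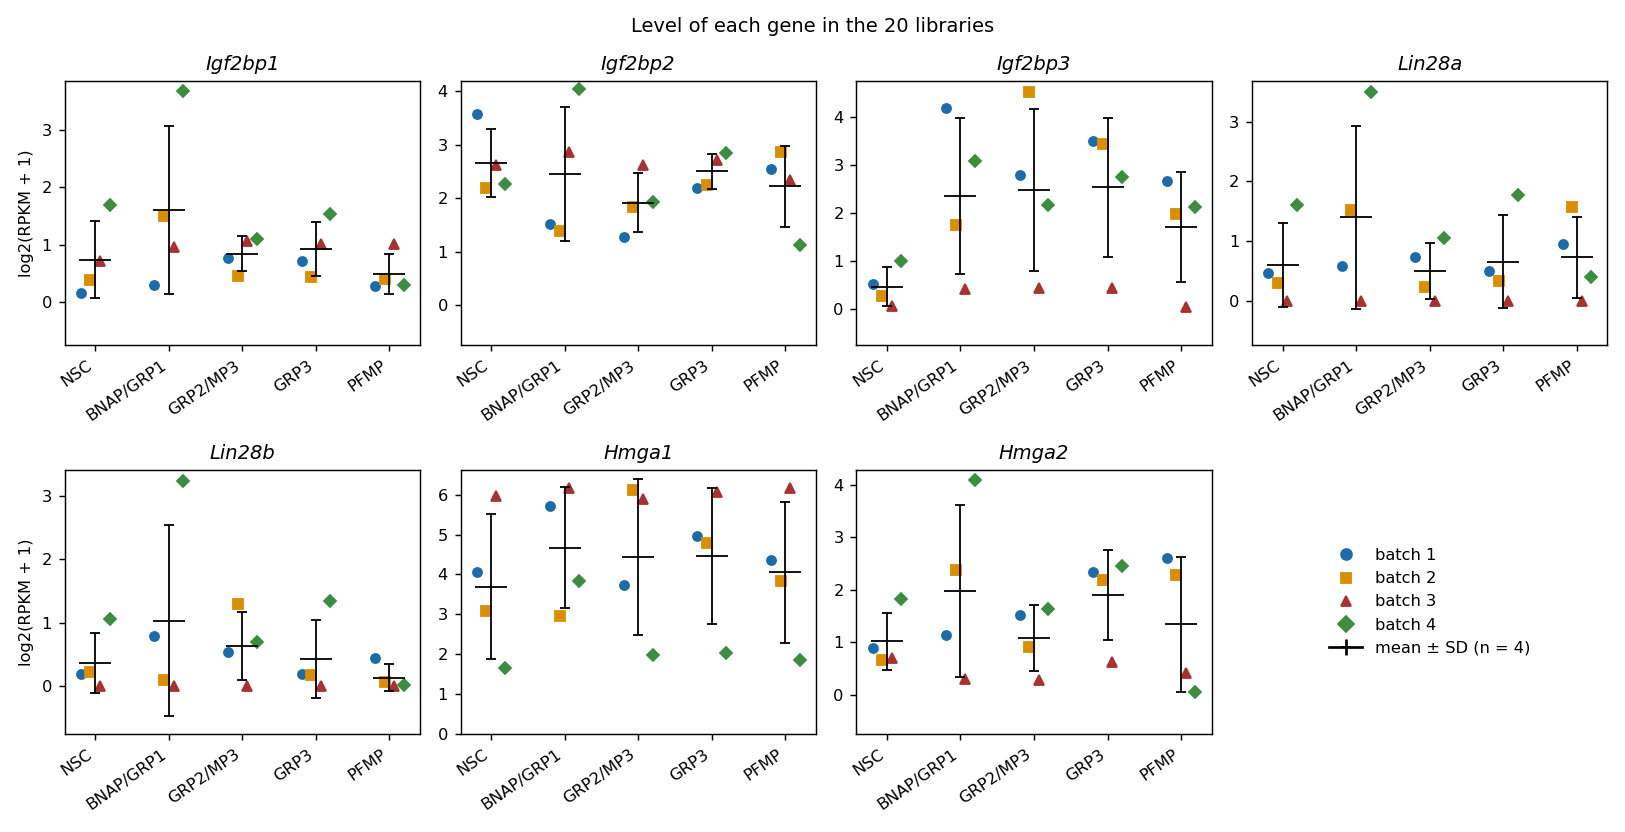
Level of each of the 7 genes as log2(RPKM + 1) in the 20 libraries, by population on the horizontal axis, with a symbol per batch and the mean ± SD of 4 libraries in black. Igf2bp3 in batches 1, 2 and 4 lies above all NSC libraries, Lin28a and Lin28b are at 0 in batch 3, and Hmga1 is highest in batch 3 in all populations but GRP2/MP3 and lowest in batch 4 in all but BNAP/GRP1.

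Igf2bp2 was the steadiest of the 3 Igf2bp genes, at 1 RPKM or more in all 20 libraries. NSC had 10.9, 3.55, 5.15 and 3.83 RPKM in batches 1 to 4, and GRP2/MP3 had 1.43, 2.59, 5.14 and 2.83. GRP2/MP3 was lower than NSC in all 4 batches, with the batch 3 pair nearly equal, and 12% of the genes tested were lower in all 4. BNAP/GRP1 had 1.85, 1.62, 6.32 and 15.6 RPKM, GRP3 had 3.59, 3.76, 5.60 and 6.21, and PFMP had 4.87, 6.28, 4.05 and 1.20. Its mean log2 level was highest in NSC, the reverse of Igf2bp3, but the joint difference of the progenitors from NSC was -0.39 ± 0.49 (SE). That difference shrank to -0.08 without NSC of batch 1. Population accounted for 13.1% and batch for 8.11% of its sum of squares, and the ranges of all 4 progenitors overlapped that of NSC.

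Igf2bp1 was low in most libraries. Its level reached 1 RPKM in 8 of 20 libraries, with 0.124, 0.312, 0.644 and 2.22 RPKM in NSC and 0.231, 1.81, 0.948 and 11.7 RPKM in BNAP/GRP1. GRP2/MP3 held 0.697, 0.365, 1.09 and 1.16 RPKM, GRP3 held 0.643, 0.350, 1.03 and 1.89, and PFMP held 0.211, 0.319, 1.01 and 0.231. The highest value was that of BNAP/GRP1 in batch 4, the library in which the median gene tested was at 10.9 RPKM. Leaving that library out lowered the difference of BNAP/GRP1 from NSC from 0.86 to 0.18. PFMP lay below NSC by 0.25 ± 0.60 (SE), a direction that turned with quantile normalization (0.19). The whole reads recovered from these values numbered 11 to 751 per library.

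The 3 paralogs therefore differed in level and in order. Per kilobase, Igf2bp2 exceeded Igf2bp3 in all 4 NSC libraries, and Igf2bp3 exceeded Igf2bp2 in both the batch 1 and the batch 2 libraries of BNAP/GRP1, GRP2/MP3 and GRP3. In all, Igf2bp3 exceeded Igf2bp2 in 9 of 16 progenitor libraries, and Igf2bp2 was the higher in all 4 of batch 3, in BNAP/GRP1 and GRP3 of batch 4 and in PFMP of batch 2. Over the 20 libraries the rank correlation between them was -0.34, and -0.28 over the 14 libraries without batch 3 and BNAP/GRP1 of batch 4, a choice of libraries made after seeing the data.

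Lin28a and Lin28b, whose products block let-7 maturation, were low in most libraries. Lin28a was listed at 0 in all 5 batch 3 libraries. In batches 1, 2 and 4 its level was 0.384, 0.234 and 2.04 RPKM in NSC and 0.493, 1.87 and 10.3 in BNAP/GRP1. GRP2/MP3 had 0.663, 0.172 and 1.06 RPKM, GRP3 had 0.406, 0.261 and 2.43, and PFMP had 0.941, 1.95 and 0.317. The largest values outside PFMP came from batch 4, where NSC, GRP3 and BNAP/GRP1 also had the highest library medians (2.96, 3.49 and 10.9 RPKM over the genes tested). Across the 20 libraries, Lin28a and that median had a rank correlation of 0.88, and 0.72 over the 14 libraries named above. Ranked within the library, Lin28a of BNAP/GRP1 in batch 4 stood above 61.2% of genes, and NSC of batch 4 above 58.0%. The difference of BNAP/GRP1 from NSC was 0.80 ± 0.66 (SE), and 0.10 without BNAP/GRP1 of batch 4.

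Lin28b was also at 0 in every batch 3 library. Their relative depth was 0.733 to 1.41, and 3 reads there would equal 0.00456 to 0.00876 RPKM, which is the level that a count of 0 allows as far as counting error goes. Elsewhere, 1 RPKM was reached in only 4 libraries, the smallest number that passed the filter on low values. They were BNAP/GRP1 (8.35 RPKM, 154 reads), GRP3 (1.54 RPKM, 198 reads) and NSC (1.09 RPKM, 80 reads), all of batch 4, and GRP2/MP3 of batch 2 (1.47 RPKM, 160 reads). PFMP was lowest, at 0.364, 0.0520 and 0.0130 RPKM in batches 1, 2 and 4, from 20, 5 and 6 reads. BNAP/GRP1 of batch 1 held the most reads (345) at 0.739 RPKM. The difference of BNAP/GRP1 from NSC was 0.66 ± 0.58 (SE), and -0.07 without BNAP/GRP1 of batch 4. For both genes the libraries of each progenitor overlapped those of NSC.

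**Figure D2:**
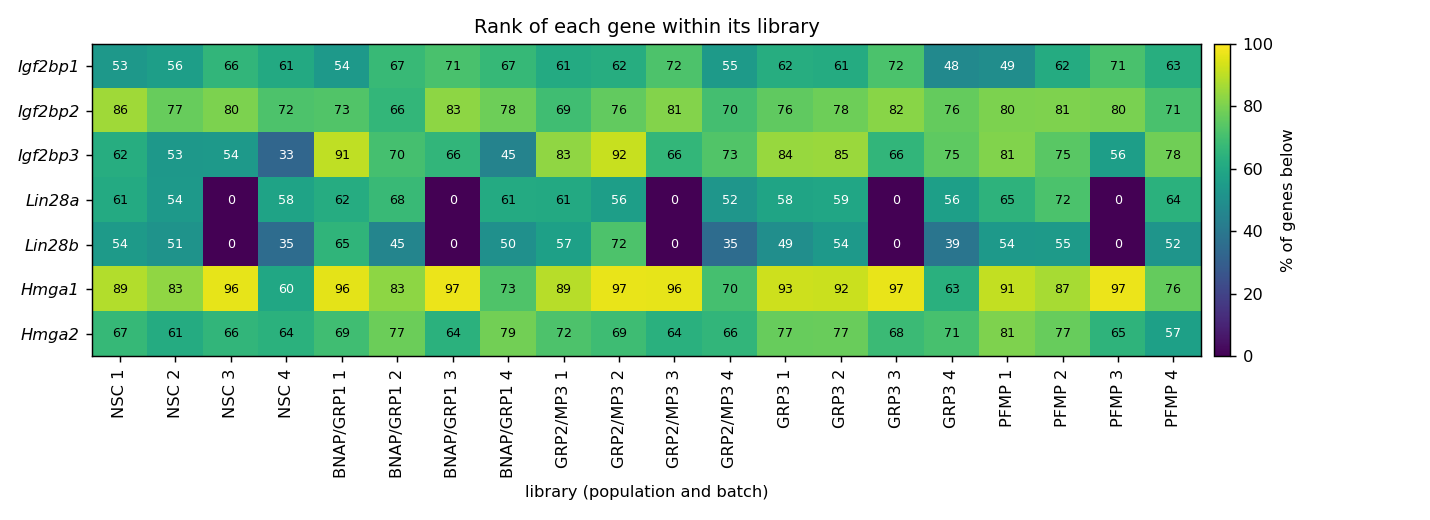
Percentage of all 45705 genes with a lower value in the same library, for the 7 genes (rows) in the 20 libraries (columns), rounded to whole numbers. Hmga1 lies above 59.6% to 96.9% of genes, Igf2bp3 is lowest in NSC of batch 4, and Lin28a and Lin28b are at 0 in the 5 batch 3 libraries.

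Hmga1 was the most abundant of the genes per kilobase in all 15 libraries of batches 1, 2 and 3 and in 0 of the 5 of batch 4, and its level followed the batch. All 5 batch 3 libraries lay between 58.8 and 70.6 RPKM, and all 5 of batch 4 between 2.15 and 13.3 RPKM. In batches 1 and 2 it was at 15.8 and 7.44 RPKM in NSC, 51.2 and 6.84 in BNAP/GRP1, and 12.2 and 68.1 in GRP2/MP3. The corresponding levels were 29.9 and 26.5 RPKM in GRP3 and 19.6 and 13.3 in PFMP. Batch accounted for 74.3% of its sum of squares on the log2 scale and population for 4.92%.

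Within batches, Hmga1 was above the NSC library in 13 of 16 progenitor libraries, a count whose share over all genes was not taken. It was above NSC in all 4 batches of GRP3 and of PFMP, where 8.31% and 5.75% of genes tested were so. The differences in GRP3 were 0.88, 1.70, 0.09 and 0.39 in batches 1 to 4, and those in PFMP 0.30, 0.76, 0.18 and 0.19. Against the spread between batches these were small, and the joint difference from NSC was 0.71 ± 0.89 (SE). With batch as a block its SE was 0.48, and without batch 3 the difference was 0.91. Leaving out 1 library, which unbalances the batches in this fit without a block, gave 0.03 without NSC of batch 4 and 1.47 without NSC of batch 3. In PFMP the difference was 0.36 ± 1.13 (SE), 0.41 without batch 3 and -0.35 without the PFMP library of batch 3 alone. Part of the Hmga1 sequence is not unique among annotated transcripts, so its level is uncertain.

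Hmga2 was higher in GRP3 than in NSC outside batch 3. NSC had 0.844, 0.576, 0.634 and 2.52 RPKM in batches 1 to 4, and GRP3 had 4.05, 3.54, 0.543 and 4.49. The 3 GRP3 libraries of batches 1, 2 and 4 lay above all NSC libraries, and the batch 3 library lay below them all. Without batch 3 the means were 4.03 ± 0.478 RPKM in GRP3 and 1.31 ± 1.06 in NSC (SD, n = 3). The difference of GRP3 from NSC was 0.88 ± 0.78 (SE) over all batches and 1.21 without batch 3. Summed OPC markers in the GRP3 libraries of batches 1, 2 and 4 were 785 to 3638 RPKM against at most 34.1 in NSC, and their part in this difference was not tested.

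The other progenitors were more uneven. PFMP had 5.09 and 3.88 RPKM of Hmga2 in batches 1 and 2 but 0.335 and 0.0394 in batches 3 and 4, and BNAP/GRP1 had 1.21, 4.20, 0.232 and 15.98. GRP2/MP3 stayed close to NSC at 1.85, 0.886, 0.210 and 2.10 RPKM, a difference of 0.07 ± 0.78 (SE). Leaving out BNAP/GRP1 of batch 4 lowered its difference from NSC from 0.96 to 0.26. Over all, Hmga2 was above the NSC library of its batch in 10 of 16 progenitor libraries, and in batch 3 it was below NSC in all 4. The share of all genes with such counts was not taken.

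**Figure D3:**
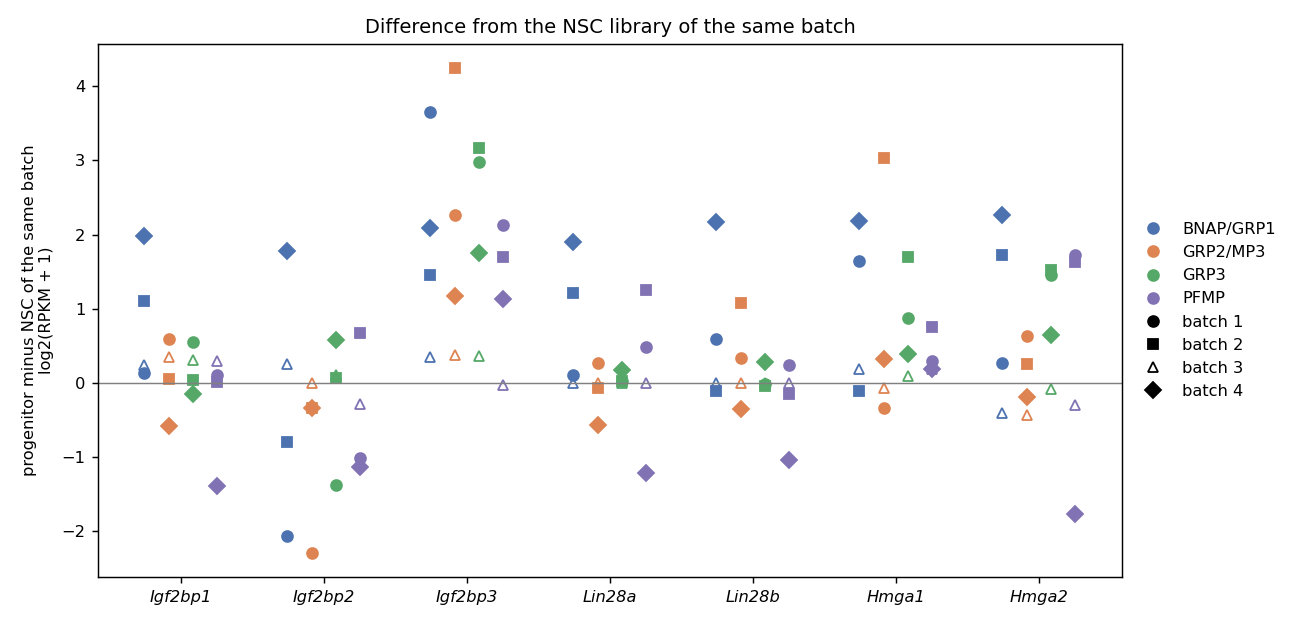
Level of each gene in a progenitor library minus that in its batch's NSC library, as a difference of log2(RPKM + 1) on the vertical axis, for the 4 progenitors (colour) and 4 batches (symbol, open for batch 3). For Igf2bp3, 15 of 16 points lie above 0, up to 4.24, while the other genes have points on both sides.

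Comparing each progenitor with NSC across all genes (limma, adjusted p under 0.05), 0 of the 7 genes passed in either direction, in any of the 4 comparisons or jointly. Few genes passed as higher at all in this fit, which has no batch term. The share was 0% for both BNAP/GRP1 and GRP2/MP3, against 0.0109% for GRP3, 0.00362% for PFMP and 0.0217% jointly. In the same order, those passing as lower were 0.76%, 1.12%, 1.04%, 1.14% and 1.96%. The paper, with DESeq2 at the same threshold, reports far more genes as higher in each progenitor, with Igf2bp3 among them in all 4. In none of the 4 progenitors did any of the 7 genes have all 4 libraries above, or all below, the 4 NSC libraries. Among all genes tested, 0.449%, 0.282%, 0.746% and 0.34% were separated as higher in these progenitors, and 1.2%, 2.93%, 2.34% and 3.51% as lower. At an unadjusted p under 0.05, Igf2bp3 alone passed, as higher, in GRP2/MP3 and GRP3 and jointly, where 241, 348 and 253 of the 27614 genes tested did so. With batch as a block, Igf2bp3 passed the adjusted threshold jointly as higher, with 0.225% of genes, and without batch 3 it did so with 0.177%. Because the genes were proposed with these contrasts in view, nothing is read from these counts.

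Of the 28 differences of a gene in a progenitor from NSC, 0 changed direction after median-of-ratios scaling and 3 after quantile normalization. Igf2bp3, Hmga1 and Hmga2 were higher than NSC in all 4 progenitors as deposited, after median-of-ratios scaling and after quantile normalization, and Igf2bp2 was lower in all 4. Igf2bp1 was higher in 3 of 4 as deposited and in 4 of 4 after quantile normalization, PFMP being the one that turned. Lin28b in PFMP also turned, from -0.24 to 0.07, and Lin28b in GRP3 went from 0.06 to -0.0028. The median gene itself differed from NSC by 0.38 in BNAP/GRP1 and -0.20 in PFMP as deposited, against 0.03 and 0.07 after quantile normalization. Read against that median, Igf2bp3, Hmga1 and Hmga2 stayed above it in all 4 progenitors.

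Between progenitors, 0 of the 7 genes passed in any of the 6 comparisons, where 0% of genes tested did. The largest of the 42 differences was that of Igf2bp1 between BNAP/GRP1 and PFMP, 1.11 ± 0.60 (SE). It was the 1 of the 42 that exceeded 2 standard errors with batch as a block (SE 0.48), and 0 did so without the block. By mean log2 level, BNAP/GRP1 was first for Igf2bp1, Lin28a, Lin28b, Hmga1 and Hmga2. Without its batch 4 library it stayed first only for Hmga1, and GRP3 was then first for Igf2bp1 and Hmga2, PFMP for Lin28a and GRP2/MP3 for Lin28b. GRP3 was first for Igf2bp3, followed by GRP2/MP3, BNAP/GRP1, PFMP and NSC, and the first 3 lay within 0.18 of each other. NSC was first for Igf2bp2, and last for Igf2bp3, Hmga1 and Hmga2. Without the block no neighbours in these orders differed by more than 2 standard errors, and with it PFMP and NSC did for Igf2bp3 (1.23, SE 0.60). The genes were chosen with such differences in view. These multiples of the SE therefore only describe size against spread, and nothing is read from them.

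**Figure D4:**
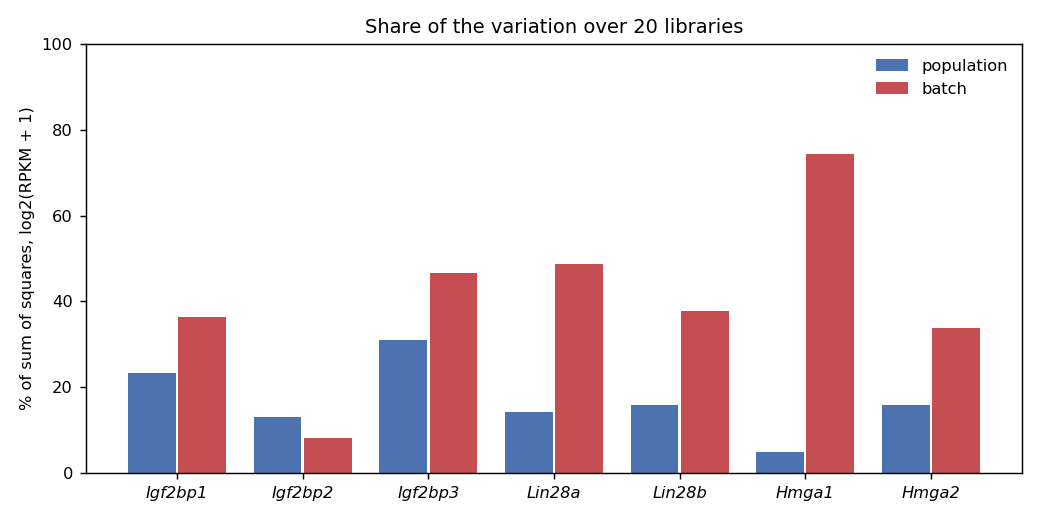
Percentage of the sum of squares of log2(RPKM + 1) over 20 libraries that lies between the 5 populations and between the 4 batches, for each gene. Batch takes more than population for every gene except Igf2bp2 (13.1% population, 8.11% batch), and reaches 74.3% for Hmga1.

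Batch accounted for more of the variation than population in 6 of the 7 genes. For Igf2bp3, population took 30.9% and batch 46.6%, and for Igf2bp1 23.3% and 36.3%. Lin28a had 14.2% and 48.7%, Lin28b 15.9% and 37.8%, and Hmga2 15.8% and 33.9%. Batch 3 was lowest for Igf2bp3, Lin28a, Lin28b and Hmga2 and highest for Igf2bp2 and Hmga1.

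Profiles over the 20 libraries were compared by rank correlation, which reflects the shared batches and library depths as well as the populations. Igf2bp3 was most like Arsb, a lysosomal sulfatase (rho 0.94), and Cables1 (0.92), and these stayed at 0.97 and 0.89 over the 14 libraries named above. Hmga1 was most like Hpcal1, a neuronal calcium sensor (0.97), and Tbc1d9 (0.96). Hmga2 was most like Cntnap4, of the neurexin superfamily (0.96), and Pate2 (0.95). Lin28a was most like Abca12, a lipid transporter (0.98), and Cacna1g, a calcium channel (0.98), which like it were at 0 in some libraries. Lin28b was most like RP24-142B15.4 and Slc22a19 (0.95 each), Igf2bp1 like the pseudogene Hmgb1-ps4 (0.93) and Gm26762 (0.89), and Igf2bp2 like the transcription factor gene Tef (0.86) and Ltbp3 (0.83). Among the genes themselves, Hmga2 and Lin28a had the highest correlation, 0.82, which was 0.66 in the 14 libraries. Lin28a and Lin28b correlated at 0.72 over all libraries but at 0.20 over the 14, and Hmga1 and Igf2bp3 moved from -0.16 to 0.65.

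The genes that act with them were counted in 8 lists, with 102 genes tested. In the comparisons of each progenitor with NSC, 0 of the 102 passed in either direction. At an unadjusted p under 0.05, 5 were higher and 4 lower in BNAP/GRP1, 1 was higher and 2 lower in each of GRP2/MP3 and GRP3, and 0 were higher and 2 lower in PFMP. Jointly 0 were higher and 4 lower. Of the 27614 genes tested, 517, 241, 348 and 219 were higher and 1112, 1359, 1204 and 1404 lower at that level in these 4 progenitors, with 253 and 1645 jointly. With batch as a block, 3 passed in BNAP/GRP1 (Drosha, Igfbp2 and Hmgn3), 3 in GRP2/MP3 (Drosha, Igfbp2 and Msi2), and Cdkn1a alone in GRP3 and in PFMP. Jointly 4 passed in that fit (Drosha, Cdkn1a, Igfbp2 and Msi2), and all of these were lower than in NSC. Of all genes tested, 2.02%, 2.91%, 2.33% and 2.61% passed as lower there in the separate comparisons and 4.14% jointly.

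Of the let-7 processing and turnover genes, 9 of 16 were higher and 7 lower than NSC jointly, with a median difference of 0.19 against 0.07 over all genes tested. Drosha, the nuclear nuclease that cuts primary microRNAs, was at 35.6, 37.1, 7.46 and 23.8 RPKM in NSC and lower in all 16 progenitor libraries than in the NSC library of its batch. Its joint difference was -1.39 ± 0.56 (SE), with a limma adjusted p of 0.450, and 0.0118 with batch as a block (range over all alternatives 0.0118 to 1.00). Msi2, an RNA-binding protein of neural progenitors that also belongs to the last list, was lower in 16 of 16 as well, by 1.40 ± 0.73 (SE), with a limma adjusted p of 0.848, and 0.0124 with the block (range 0.0124 to 1.00). For these counts over the 16 progenitor libraries, here and in the lists below, the share over all genes tested was not counted. The genes were named for the largest joint differences in their lists, which favours such counts. Of 16 let-7 host transcripts 12 were in the table and 1, Mir99ahg, passed the filter on low values. This host of let-7c was above the NSC library in 6 of 16 progenitor libraries, with a joint difference of -0.14 ± 0.71 (SE).

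Other mRNAs known as let-7 targets numbered 21, of which 17 were higher and 4 lower jointly, with a median of 0.33 against 0.07 for all genes tested. Cdc25a, a phosphatase that drives entry into the cell cycle, was between 3.25 and 3.398 RPKM in the 4 NSC libraries. It stood at 15.4, 18.6, 4.07 and 27.4 RPKM in BNAP/GRP1 and 15.2, 15.4, 4.13 and 5.20 in GRP3, above NSC in all 4 batches of each. Of the genes tested, 9.35% and 8.31% were so. Cdc25a was above NSC in only 3 of 4 batches in GRP2/MP3 and in 2 of 4 in PFMP. Its joint difference was 1.20 ± 0.59 (SE), with a limma adjusted p of 0.758. Ccnd1, which encodes cyclin D1, had 12.2, 2.70, 1.55 and 21.8 RPKM in NSC and 49.2, 175.6, 1.93 and 71.3 in PFMP, again with batch 3 at the NSC level. The joint difference of Ccnd1 was 1.51 ± 1.00 (SE), with a limma adjusted p of 1.00.

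IGF2BP cargo mRNAs and partners counted 14 higher and 7 lower of 21 jointly, with a median of 0.15. Igf2, whose mRNA gave the IGF2BP family its name, had 5.89, 5.44, 0.670 and 5.16 RPKM in NSC. It reached 116.5, 56.9, 0.0674 and 16.8 RPKM in GRP3 and 22.2, 55.2, 0.00624 and 67.0 in GRP2/MP3, but was at 10.7, 2.86, 0.361 and 1.88 in PFMP. Elavl2, a neuronal RNA-binding protein, was above NSC in 11 of 16 libraries, with a joint difference of 1.01 ± 0.95 (SE). In the IGF ligand, receptor and binding protein list 7 of 14 were higher and 7 lower, with a median of -0.04. Igfbp2, a secreted IGF-binding protein, was at 84.2, 518.2, 30.7 and 112.3 RPKM in NSC and lower in 15 of 16 progenitor libraries. Its joint difference was -3.25 ± 1.18 (SE), with a limma adjusted p of 0.308, and 0.00576 with batch as a block (range over alternatives 0.00576 to 1.00). Igfbp7 was lower in 13 of 16, with a joint difference of -1.75 ± 0.88 (SE), while GRP2/MP3 had 487.7, 865.3, 19.6 and 182.0 RPKM, beside summed pericyte markers of 125 to 7477 RPKM in that gate.

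Among the other high-mobility-group genes 5 of 13 were higher and 8 lower, with a median of -0.32 against 0.07 for all genes tested, in contrast to Hmga1 and Hmga2. Hmgn3, a nucleosome-binding protein, was lower than NSC in 16 of 16 libraries, with a joint difference of -1.95 ± 1.10 (SE) and a limma adjusted p of 0.964. Hmgn5 was lower in 14 of 16, by 1.21 ± 0.55 (SE), with a limma adjusted p of 0.638. For the cyclin-dependent kinase inhibitors of the INK4 and CIP families, 3 of 7 were higher and 4 lower, with a median of -0.04. Cdkn1a, which encodes p21, was at 163.9, 207.2, 203.5 and 175.5 RPKM in NSC and lower in all 16 progenitor libraries. GRP3 had 5.06, 2.90, 196.9 and 6.85 RPKM and PFMP 2.45, 7.55, 185.6 and 18.7, so that batch 3 again stood at the NSC level. The joint difference of Cdkn1a was -2.38 ± 0.92 (SE), with a limma adjusted p of 0.384, 0.0474 with batch as a block and 0.0115 without batch 3 (range over alternatives 0.00764 to 1.00). Cdkn2b, of the Ink4 locus that HMGA2 is known to restrain, was lower in 11 of 16, with a joint difference of -1.25 ± 0.90 (SE).

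Other RNA-binding proteins of neural progenitors were higher in 13 of 18, with a median of 0.52 jointly against 0.07 for all genes tested. The median was 0.81 in GRP3 and 0.72 in PFMP, against 0.05 and -0.20 for all genes. It was 0.30 in GRP2/MP3, against -0.08, and 0.11 in BNAP/GRP1, against 0.38. That 0.38 depended on the batch 4 library of BNAP/GRP1. Without that library the median of all genes was -0.20, and after quantile normalization it was 0.03. List medians were not computed in those settings, so the place of the list against all genes in BNAP/GRP1 is uncertain. Elavl4 had 3.91, 1.88, 1.07 and 15.7 RPKM in NSC and 38.5, 59.2, 0.109 and 22.2 in GRP3, a difference of 1.74 ± 1.35 (SE). The ependymal markers moved against the progenitors beside all of these differences, with NSC sums of 1578 RPKM or more against 560 or less in the progenitors, and their part in them was not tested.

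**Figure D5:**
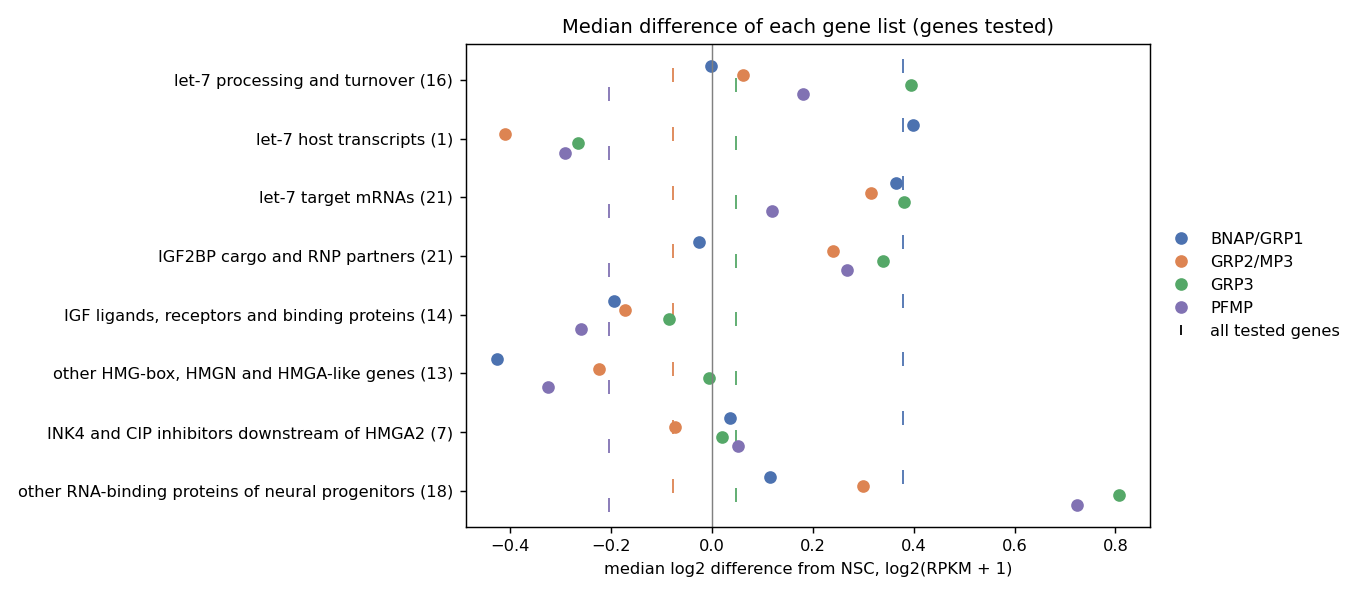
Median difference from NSC, on the log2(RPKM + 1) scale, over the tested genes of each list (number in brackets), for each progenitor (dots), beside the median over all genes tested in that comparison (ticks). The RNA-binding list lies highest in GRP3 (0.81) and PFMP (0.72), and the high-mobility-group list lowest in BNAP/GRP1 (-0.43). The median over all genes in BNAP/GRP1, 0.38, was -0.20 without its batch 4 library.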

How the data were processed

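RNA from 20 sorted libraries (5 populations in 4 batches) was amplified from poly(A) and sequenced on a NextSeq500. Per the labels and the study's methods, the authors ran nf-core/rnaseq with FastQC 0.11.9, cutadapt 3.4, STAR 2.6.1 and Salmon 1.9.0 on GRCm38, and DESeq2 1.26.0 for their own tests. The deposited table holds RPKM values per gene and library. The annotation release, gene lengths and read totals behind the RPKM are not given in the sources used here. A further 26 columns of the table are empty.

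Here, log2(RPKM + 1) was fitted with limma 3.58.1 (R 4.3.3, trended prior) over all 20 libraries without a batch term, for the 27614 genes at 1 RPKM or more in at least 4 libraries. All 7 genes passed that filter. P-values were adjusted by Benjamini-Hochberg over all genes tested (threshold 0.05), and the fit was tested on simulated data. Other tables were made with Python 3.11.15, numpy 2.4.6 and pandas 2.3.3. The labels give a batch number shared by the populations. Deviations from the population means correlated within batches (median r 0.34, 0.26, 0.77 and 0.58 in batches 1 to 4), so the fit with batch as a block is printed where it changed a call. Between batches the median r was -0.25, a value that the subtraction of population means itself pulls below 0. Whether the libraries of a batch were sorted from the same pool of pups is not stated in the labels. P-values of the fit without a block measure the spread between libraries of a population, which includes the spread between batches.

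Relative depth was the most frequent ratio of a gene's value in BNAP/GRP1 of batch 1 to that in the library, over genes low in the former. Read totals are not in the table. Whole reads could be recovered for Igf2bp1, Igf2bp2 and Lin28b (tolerance 0.02). The limit of 3 reads given for Lin28b covers counting error only, whereas each SD and SE describes the spread between libraries. The 7 genes and all lists were chosen with earlier results of these data known. Named in the text were the 7 genes, for each the 2 tested genes with the most similar rank profile, and from each list the genes that passed the threshold (at most 4) or else the 2 with the largest joint difference from NSC. Sequences were read from RefSeq (GRCm38.p6) and GENCODE vM21. Alternatives covered the pseudocount, filters, scaling, the variance prior, library weights, the block, single libraries and batch 3.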

Additional observations from a re-analysis of the deposited data

Results flagged for a closer look

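In 4 of 35 sets of 4 libraries (7 genes in 5 populations), 1 library lay apart from the other 3 by Dixon's 95% criterion on the log2 scale, and chance alone flags about 1 set in 20. Igf2bp1 in PFMP of batch 3 was at 1.01 RPKM, against 0.211 to 0.319 in the other PFMP libraries. Lin28b in GRP3 of batch 4 was at 1.54 RPKM, against 0 to 0.143. In PFMP of batch 1, Lin28b was at 0.364 RPKM, against 0 to 0.0520. Hmga2 in GRP3 of batch 3 was at 0.543 RPKM, against 3.54 to 4.49. Of these libraries, 2 belong to batch 3, in which all 5 libraries resembled each other.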

How the results depend on the processing

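The count of the 7 genes that passed was 0 in every main comparison with NSC. Jointly it became 1 (Igf2bp3) with the replicate block, with batch 3 left out, with both, and with library weights. Library weights also gave 1 in BNAP/GRP1 (Igf2bp3) and 2 in GRP3 (Igf2bp3 and Hmga2). Those weights ranged from 0.0636 for BNAP/GRP1 of batch 4 to 10.2 for GRP3 of batch 1. With single libraries left out in turn the counts stayed at 0 for the 7 genes. The block changed no other call on the 7 genes. For the pathway lists, 0 genes passed in the main fit. In BNAP/GRP1 the count was 3 with the block, 1 with the block and without batch 3, and 7 with library weights. In GRP2/MP3 it was 3, 1 (without batch 3), 2 (both) and 5, in GRP3 1, 1, 2 and 23, in PFMP 1, 1, 3 and 2, and jointly 4, 1, 2 and 5, in the same order. Leaving out 1 library gave 0 to 1 list genes in GRP3 (1 without GRP3 of batch 3) and 0 elsewhere. The causes were not tested. Of the 35 differences of the 7 genes from NSC, 21 kept their sign under every alternative run. Of 1048 values, 1 moved by more than the SD between libraries, that of Igf2bp2 in BNAP/GRP1 with library weights (-1.09 against -0.21). That SD is wide, so shifts of the joint Hmga1 difference from 0.71 to 0.03 or 1.47 did not count as moves. The sign of all 5 joint or separate Igf2bp3 differences was kept, the joint one between 1.63 and 2.89. The lower of those came without GRP2/MP3 of batch 2 and the higher with a pseudocount of 0.1. Depth limits the low genes most, since Lin28b rested on 5 and 6 reads in PFMP of batches 2 and 4.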

Other observations

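Hmga1 and the proliferation markers, 10 genes of the cell cycle, moved together in most libraries once those that stood apart were set aside. Over all 20 libraries the rank correlation between Hmga1 and the summed proliferation level was 0.22, and over the 14 libraries without batch 3 and BNAP/GRP1 of batch 4, chosen after seeing the data, it was 0.95. Batch 3 had the highest Hmga1 levels (58.8 to 70.6 RPKM) at proliferation sums of 274 to 330 RPKM, whereas GRP2/MP3 of batch 2 had 68.1 RPKM of Hmga1 at the highest sum of all, 1972 RPKM. For Igf2bp3 the same correlation was 0.44 over 20 and 0.57 over 14 libraries, and its correlation with the ependymal sum went from -0.20 to -0.74. With the OPC sum Igf2bp3 correlated at 0.73 over 20 and 0.46 over 14. These are descriptions across libraries that share batches and populations.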
